A study of Homo sapiens with 5 samples.

Results

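The genes described here encode matrix metalloproteases (MMPs), ADAM and ADAMTS proteases and the tissue inhibitors TIMP1 to TIMP4, measured on HG-U133 Plus 2.0 arrays in HEK293 cells, a human line derived from embryonic kidney. Cells labelled PRL-1 (2 arrays) carried pcDNA4-PRL-1 stably, and vector cells (3 arrays) carried pcDNA4 without an insert. Both groups were grown in the same medium and received no further treatment. PTP4A1 is the gene of PRL-1, a protein tyrosine phosphatase of small size. The authors left out a further PRL-1 array because PRL-1 in that sample did not differ from controls by qRT-PCR. The replicates of a group came from 1 stable line, so effects of PRL-1 and of other features of the lines cannot be told apart. Members were all probe sets annotated to 1 gene whose symbol is MMP, ADAM or ADAMTS followed only by digits, or TIMP1 to TIMP4, and ADAMTSL genes were not included. They numbered 145 of 54675 probe sets and stood for 64 genes. Of these, 81 probe sets of 48 genes reached a signal of 100 on 2 or more arrays and were tested, while 64 probe sets did not and are reported by their signals alone. RefSeq lists 65 protein-coding genes with such symbols, of which 62 had a member probe set and 3 were not analysed here. The other 2 members, ADAM5 and ADAM6, are pseudogenes in RefSeq.

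MMPs are zinc-dependent proteases made as inactive precursors, most of them secreted and some anchored in the membrane, that cleave collagens, laminins and other matrix proteins. ADAMs are transmembrane proteins, many of which release the outer domains of cell surface proteins such as Notch, growth factor precursors and cadherins. ADAMTS proteins are secreted and bind the matrix, where they cleave proteoglycans, process procollagens or trim von Willebrand factor. TIMPs are small secreted proteins that block the active site of MMPs and of some ADAM and ADAMTS proteases. The balance of these proteases and inhibitors is a known determinant of invasion and of matrix turnover.

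Facts of the arrays as a whole bear on these values. The 4 tested probe sets of PTP4A1 had log2 fold changes of 0.06 to 0.15, PRL-1 minus vector, with limma adjusted p from 0.737 to 0.892, and were not called. Whether they lie inside the construct's transcript is not known here, so they do not check the labels. Over all tested probe sets, vector replicate 3 correlated with the other arrays at 0.938 to 0.947, and the others correlated with each other at 0.954 to 0.964. Of 10 markers that HEK293 cells are known for, 8 reached 100 on 2 or more arrays. NEFH and NEFM were under 100 on every array. The 3 with the smallest p, KRT8, VIM and PAX2, had groups apart and were not called. Their log2 fold changes were 0.94, -0.53 and -0.75 (limma adjusted p = 0.257, 0.314 and 0.341). Of the list's 13 tested probe sets, 1 was higher (7.69%) and 2 lower (15.4%) at an unadjusted p at or below 0.05. Among all tested probe sets 4.39% were higher and 5.33% lower. The summed signal of the 10 markers was 54733 to 55560 on PRL-1 arrays and 54626 to 63718 on vector arrays. For other cells that make metalloproteases, PTPRC and CD14 (macrophages), CDH5 and KDR (endothelium) and PDGFRB (fibroblasts) were under 100 on all 5 arrays. COL1A1, DCN and THY1 (fibroblasts) and PECAM1 (endothelium) reached 100 on all 5 arrays. Each marker was read here by its probe set with the highest mean signal. Of 4 macrophage markers on the array 1 reached 100 on 2 or more arrays, as did 1 of 4 endothelial and 5 of 7 fibroblast markers. The summed signal on PRL-1 and on vector arrays was 141 to 221.7 and 183.4 to 296.1 for macrophage markers, 427 to 486 and 528 to 810 for endothelial markers, and 1547 to 1824 and 1683 to 2043 for fibroblast markers. The labels name HEK293 cells only, and the authors describe plates of these lines. The marker signals are therefore not read as shares of other cell types, and their source was not tested.

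A signal of 100 served as the lower limit of measurement, and 52 member probe sets of 29 genes reached it on all 5 arrays. Among the MMPs these genes were MMP7, MMP9, MMP14, MMP25 and MMP26. Among the ADAMs they were 7 of the proteinases (ADAM9, ADAM10, ADAM15, ADAM17, ADAM19, ADAM21 and ADAM33) and 3 of the 6 members that lack an active site (ADAM11, ADAM22 and ADAM23), which act in adhesion and at synapses. Among 18 ADAMTS genes 11 did so, from ADAMTS1, a protease of the proteoglycans versican and aggrecan, to ADAMTS13, which trims von Willebrand factor. TIMP1, TIMP2 and TIMP3 did so as well. At the other end, 53 probe sets were under 100 on every array and 11 reached it on 1 array. The 16 genes without a tested probe set were the collagenases MMP1 and MMP13, the stromelysin MMP10, MMP19, MMP20, MMP21 and MMP24, the germ line proteins ADAM2, ADAM18, ADAM30 and ADAM32, ADAM28, ADAM6, ADAMTS16, ADAMTS20 and TIMP4. TIMP4 had signals of 39.9 and 19.8 on PRL-1 arrays and of 22.6, 8.89 and 50.8 on vector arrays. Its groups overlapped, with all arrays at low values.

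**Figure D1:**
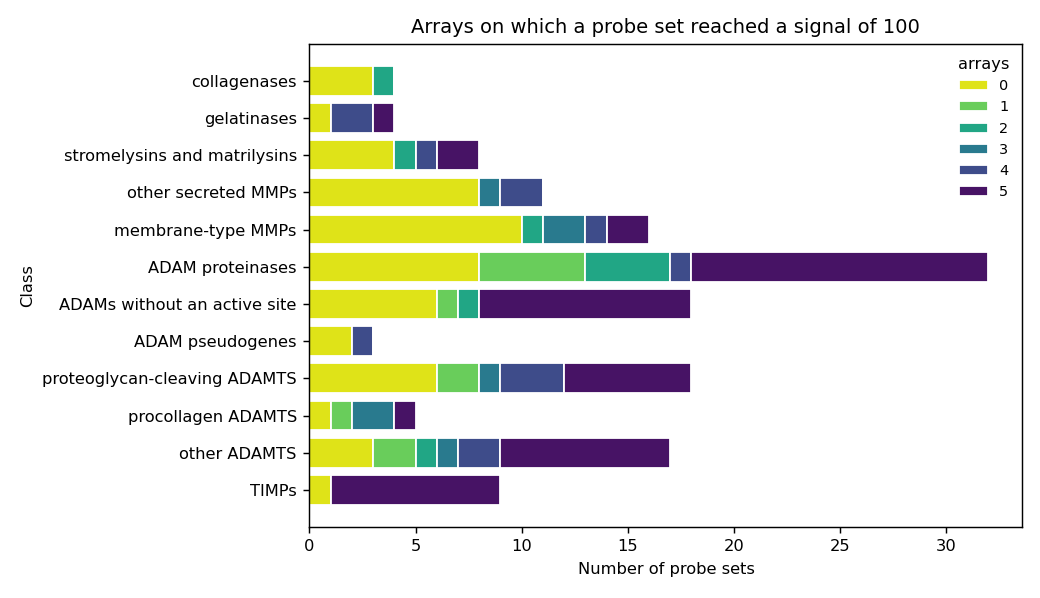
Bars give the number of member probe sets (horizontal axis) in each class of protein (vertical axis), coloured by the number of arrays (0 to 5) on which the probe set reached a signal of 100. Of 9 TIMP probe sets 8 reached it on all 5 arrays, while 3 of 4 collagenase probe sets reached it on none.

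Probe sets of 1 gene often differed in whether they gave a signal. In 23 genes, some probe sets were tested and others were not. MMP14, the membrane-type protease that activates MMP2, gave 435.6 and 591.3 on PRL-1 arrays and 542.7, 492.4 and 570.6 on vector arrays through 160020_at. Its other 3 probe sets were under 100 on all 5 arrays. ADAM33 gave 563.9 and 814.8 on PRL-1 arrays and 556.9, 563.5 and 1315 on vector arrays through 233868_x_at, while 232570_s_at stayed between 2.89 and 12.5. The suffix _x_at marks probe sets that may bind other transcripts, and for ADAM33 no other probe set reached 100. Signals of different probe sets are not levels on a common scale, so their sizes are not compared between genes. The highest signals served only to choose some of the genes to name.

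Of the 64 genes, 36 matched an entry of the RefSeq promoter table (GRCh38.p14), which holds a window of 300 bases around each gene's start. The following 4 promoters are shown since TIMP3, ADAMTS17 and MMP15 are the genes with entries that lead the comparison below, while MMP10 lay under 100 on every array. All run 5′ to 3′, and capitals mark matches to the GC box (GGGCGG, either strand), the TATA box (TATAAA, same strand as the gene) or the AP-1 site (TGANTCA, either strand).
TIMP3 promoter (chr22:32801455-32801754, plus strand): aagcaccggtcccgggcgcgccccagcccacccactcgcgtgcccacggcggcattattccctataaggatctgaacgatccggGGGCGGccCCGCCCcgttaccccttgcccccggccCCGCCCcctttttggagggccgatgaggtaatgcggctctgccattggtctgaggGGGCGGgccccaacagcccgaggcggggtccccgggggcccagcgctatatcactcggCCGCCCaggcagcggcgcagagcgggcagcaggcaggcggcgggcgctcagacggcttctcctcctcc
ADAMTS17 promoter (chr15:100341926-100342225, minus strand): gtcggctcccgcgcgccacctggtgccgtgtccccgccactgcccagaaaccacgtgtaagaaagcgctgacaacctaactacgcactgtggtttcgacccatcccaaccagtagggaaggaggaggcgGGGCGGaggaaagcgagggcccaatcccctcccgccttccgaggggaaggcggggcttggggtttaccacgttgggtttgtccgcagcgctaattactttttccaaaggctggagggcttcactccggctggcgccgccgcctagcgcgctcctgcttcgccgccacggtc
MMP15 promoter (chr16:58025504-58025803, plus strand): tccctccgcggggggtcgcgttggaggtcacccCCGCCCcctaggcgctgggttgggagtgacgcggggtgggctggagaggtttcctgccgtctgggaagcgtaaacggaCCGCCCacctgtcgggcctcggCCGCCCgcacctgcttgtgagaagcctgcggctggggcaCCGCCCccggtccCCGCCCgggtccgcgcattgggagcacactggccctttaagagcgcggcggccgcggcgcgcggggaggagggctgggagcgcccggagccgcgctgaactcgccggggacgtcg
MMP10 promoter (chr11:102780579-102780878, minus strand): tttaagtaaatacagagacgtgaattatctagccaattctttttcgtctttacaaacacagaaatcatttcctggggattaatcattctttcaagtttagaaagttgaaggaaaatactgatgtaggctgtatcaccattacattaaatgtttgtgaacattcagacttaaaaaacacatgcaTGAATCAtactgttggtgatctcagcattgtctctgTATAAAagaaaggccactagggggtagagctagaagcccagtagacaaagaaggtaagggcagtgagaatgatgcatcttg

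The promoters of TIMP3, ADAMTS17 and MMP15 held 31, 28 and 39 CpG dinucleotides and 5, 1 and 5 matches to the GC box. That of MMP10 held 2 CpG dinucleotides, no GC box, and 1 match each to the TATA box and the AP-1 site. Over the 18 matched genes that reached 100 on all 5 arrays the median number of CpG dinucleotides was 27, over the 11 that did so on 2 to 4 arrays it was 29, and over the 7 below that it was 12. In all 27305 promoters of the table the median was 14. The GC box was present in 14 of these 18, in 7 of 11 and in 3 of 7, and in 44.6% of all promoters. The TATA box was present in 3, 1 and 3 genes and in 7.71% of all promoters, and the AP-1 site in 2, 0 and 2 genes and in 7.76%. Of the genes that reached 100 on all arrays, ADAM21, ADAMTS13, MMP7, MMP14 and MMP26 had 1, 7, 4, 10 and 0 CpG dinucleotides, under the median of the table. No relation between CpG content and signal was tested. These matches are descriptions of letters in a window, for 36 of 64 genes only.

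The comparison of PRL-1 with vector cells asks whether the transcripts of these proteases and inhibitors differ when PRL-1 is stably expressed. No member was called by limma: 0 of 81 tested probe sets had an adjusted p at or below 0.05, against 0.192% of all tested probe sets. At an unadjusted p at or below 0.05, 4 member probe sets were higher on PRL-1 arrays (background 4.39%) and 3 were lower (background 5.33%). Both counts were near or under the background. The methods' t-test on the same values also called 0 members after adjustment, and it called 0 of all 33818, so its 0 does not set the members apart. It gave 3 members higher and 2 lower at an unadjusted p at or below 0.05, against 8.59% of all tested probe sets in both directions. The 4 higher ones belonged to ADAMTS1 (both of its probe sets), TIMP2 and MMP15, and the 3 lower ones to ADAMTS17, ADAMTS5 and MMP2. Groups did not overlap in 9 probe sets with PRL-1 higher (background 12.8%) and in 13 with PRL-1 lower (background 16.1%). For 48 of the 81 the 95% interval of the log2 fold change lay between -1 and 1, which bounds a change to under 2-fold in either direction. The median log2 fold change was -0.06 over members and -0.04 over all tested probe sets, with 25 members above 0 and 56 (69.1%) below, against 55.1% below among all tested probe sets. The filter bears on these counts: 4 probe sets, of ADAM8, ADAMTS5, ADAMTS10 and MMP8, were under 100 on both PRL-1 arrays and were tested through vector arrays alone, while none was tested through PRL-1 arrays alone. All 4 were below 0 and that of ADAMTS5 was among the 3 lower ones, which leaves 2 lower ones and 52 of 77 below 0 without them.

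**Figure D2:**
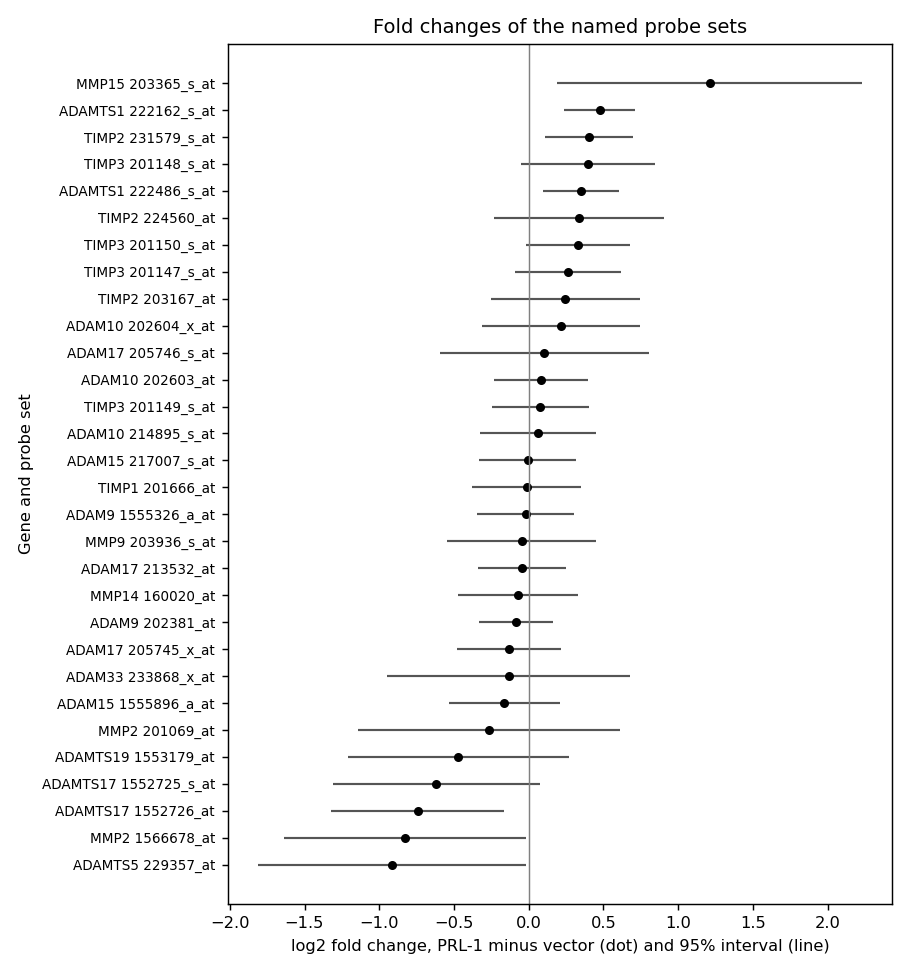
Log2 fold change of PRL-1 minus vector (horizontal axis, dot) with its 95% interval (line) for the 30 probe sets of the 16 genes chosen by the rule for named genes. Intervals of ADAM10, ADAM17 and TIMP1 span 0, and those of MMP15, MMP2 and ADAMTS5 are the widest of the 7 that do not.

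ADAMTS1 came nearest to a call. Its probe set 222162_s_at gave signals of 9051 and 9195 on PRL-1 arrays and of 6451, 6884 and 6369 on vector arrays. Both PRL-1 arrays lay above all vector arrays. The means were 9123 ± 102 in PRL-1 cells (SD, n = 2) and 6568 ± 277 in vector cells (SD, n = 3), with a log2 fold change of 0.47 (95% interval 0.24 to 0.71, limma adjusted p = 0.207). Its second probe set, 222486_s_at, gave 2778 and 2914 on PRL-1 arrays and 2085, 2383 and 2241 on vector arrays. The groups did not overlap there either, and the log2 fold change was 0.35 (95% interval 0.09 to 0.61, limma adjusted p = 0.378). Without vector replicate 3, 222162_s_at was called (log2 fold change 0.45, limma adjusted p = 0.0473), and it was the only member called in that fit. Without either PRL-1 array its adjusted p was 0.757 and 0.899.

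**Figure D3:**
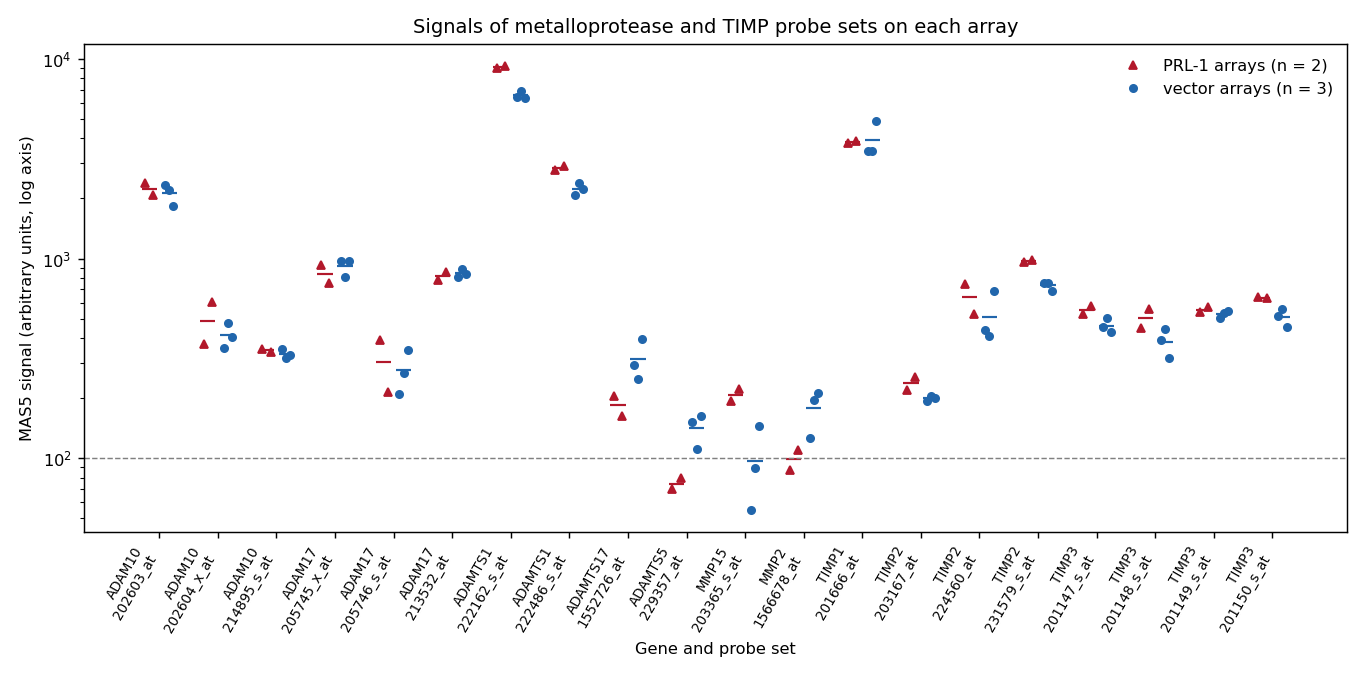
MAS5 signal (vertical log axis) of 20 probe sets on each PRL-1 array (triangles, left of each pair) and each vector array (circles), with a short bar at each group mean and dashes marking a signal of 100. The 2 groups are apart for both ADAMTS1 probe sets and overlap for ADAM10, ADAM17 and TIMP1, and both PRL-1 arrays are under 100 for ADAMTS5.

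ADAMTS5, an aggrecanase of cartilage and the next protein-coding gene to ADAMTS1 on chromosome 21, gave values of the opposite sign. Its probe set 229357_at had signals of 69.8 and 79.3 on PRL-1 arrays and of 151.5, 111.5 and 163.5 on vector arrays. All vector arrays were above 100 and both PRL-1 arrays below it, which made the observed PRL-1 mean at least 1.4-fold lower. The log2 fold change was -0.92 (95% interval -1.81 to -0.02, limma adjusted p = 0.502). This interval reaches almost to no change. A probe set that passes the filter only through 1 group is selected toward being higher in that group. A fold written as at least N-fold sets the dim group to 100. It describes the observed group means and does not take in their uncertainty. The 2 other tested probe sets of ADAMTS5 gave log2 fold changes of -0.48 and -0.26 (limma adjusted p = 0.72 and 0.869). Groups were apart in the first of these and overlapped in the other. The fourth was under 100 on all arrays.

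ADAMTS17, whose loss in humans causes a syndrome of short stature and lens defects, had values below 0 in all 3 of its probe sets without a call. In 1552726_at the signals were 206.1 and 162.8 on PRL-1 arrays and 292.2, 250.5 and 393.9 on vector arrays. The groups were apart, with a log2 fold change of -0.74 (95% interval -1.32 to -0.17, limma adjusted p = 0.408). In 1552725_s_at they were 147.9 and 109.1 on PRL-1 arrays and 160.2, 192.7 and 240.4 on vector arrays, a log2 fold change of -0.62 (limma adjusted p = 0.554). In 1552727_s_at the groups overlapped and the log2 fold change was -0.04, so the probe sets differed in size. ADAMTS19, related to ADAMTS17, gave -0.47 with overlapping groups (limma adjusted p = 0.684).

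The 25 tested ADAMTS probe sets had 5 values above 0 and 20 below, with a median log2 fold change of -0.25. Those of ADAMTS10 and of ADAMTS5 (229357_at) among the 20 passed the filter through vector arrays alone. They were thus selected toward being lower on PRL-1 arrays, and the count is no support for a direction. Among all tested probe sets 55.1% were below 0. With the filter at a signal of 200, 8 of 12 ADAMTS probe sets were below 0 and the median was -0.04. ADAMTS8 shows how far probe sets of 1 gene went apart: its log2 fold changes were 0.43 in 235649_at and -0.43 in 220677_s_at, neither called (limma adjusted p = 0.7 and 0.765). The procollagen proteases ADAMTS2, ADAMTS3 and ADAMTS14 gave -0.19, -0.05 and -0.25. ADAMTS4, an aggrecanase, gave 238.9 and 295.3 on PRL-1 arrays and 282.1, 341.9 and 350.3 on vector arrays, with overlapping groups (limma adjusted p = 0.695). ADAMTS13 was tested in both of its probe sets, at -0.19 and -0.48 (limma adjusted p = 0.869 and 0.716).

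Among the inhibitors, 7 of 8 tested probe sets lay above 0, as did 44.9% of all tested probe sets, and the median log2 fold change was 0.30. All 7 belonged to TIMP2 or TIMP3, while TIMP1 was at -0.01 and TIMP4 was not tested. These values therefore describe TIMP2 and TIMP3 and not TIMPs as a class. None was called. TIMP2, which inhibits MMP2 and also takes part in its activation by MMP14, was measured by 3 probe sets. In 231579_s_at its signals were 960.4 and 979.1 on PRL-1 arrays and 757.8, 755.3 and 689 on vector arrays. The groups did not overlap, and the log2 fold change was 0.40 (95% interval 0.11 to 0.69, limma adjusted p = 0.373). The values of 203167_at were 220.6 and 254.6 on PRL-1 arrays and 194.4, 205.9 and 200.1 on vector arrays, also apart (log2 fold change 0.24, limma adjusted p = 0.757). In 224560_at the groups overlapped, since vector replicate 3 at 689.9 lay above PRL-1 replicate 2 at 529.6 (log2 fold change 0.34, limma adjusted p = 0.704).

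TIMP3, which is bound to the matrix and inhibits ADAM10, ADAM17 and aggrecanases as well as MMPs, was above 0 in all 4 probe sets. The largest difference was in 201148_s_at, with 447.5 and 560.1 on PRL-1 arrays and 388.8, 441.8 and 319.2 on vector arrays. PRL-1 replicate 1 was only just above vector replicate 2 there, and the log2 fold change was 0.40 (95% interval -0.05 to 0.84, limma adjusted p = 0.554). In 201150_s_at the signals were 643.4 and 631.8 on PRL-1 arrays and 516.6, 560.1 and 452.1 on vector arrays (log2 fold change 0.33, limma adjusted p = 0.53). The groups did not overlap in 201147_s_at either (0.26, limma adjusted p = 0.627), and they did in 201149_s_at (0.08, limma adjusted p = 0.891). These 4 probe sets measure the same gene and are not independent of each other. TIMP1, the inhibitor induced by growth factors, gave 3783 and 3900 on PRL-1 arrays and 3467, 3462 and 4859 on vector arrays. Vector replicate 3 was the highest, the groups overlapped and the log2 fold change was -0.01 (95% interval -0.38 to 0.35, limma adjusted p = 0.985).

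Of the MMPs, 17 probe sets of 15 genes were tested, 5 above 0 and 12 below. MMP15, a membrane-type MMP of epithelia, gave 192.5 and 222.8 on PRL-1 arrays and 55.3, 89.2 and 145.5 on vector arrays through 203365_s_at. The groups were apart, but 2 of the 3 vector arrays were under 100, so the log2 fold change of 1.21 has an uncertain size (95% interval 0.19 to 2.23, limma adjusted p = 0.441). Over the alternatives it lay between 0.86 and 1.56, with adjusted p from 0.102 to 0.98. Its other probe set was under 100 on all arrays. ADAM8 205179_s_at gave 17.9 and 43.3 on PRL-1 arrays and 22, 107.3 and 102.1 on vector arrays, mostly under the limit of measurement, so no fold is given for it.

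MMP2, a gelatinase of basement membrane collagen, gave 86.8 and 110.2 on PRL-1 arrays and 125.7, 196 and 212.4 on vector arrays in 1566678_at. The groups were apart near the limit of measurement (log2 fold change -0.83, limma adjusted p = 0.502). In 201069_at its signals were 93.1 and 136.4 on PRL-1 arrays and 177.1, 103.3 and 135.8 on vector arrays, overlapping (log2 fold change -0.27, limma adjusted p = 0.857). MMP9, the other gelatinase, gave 305 and 384.9 on PRL-1 arrays and 282, 382.7 and 409.7 on vector arrays. Its groups overlapped, with a log2 fold change of -0.05 (95% interval -0.54 to 0.45, limma adjusted p = 0.964). For MMP14 the interval ran from -0.48 to 0.33 (limma adjusted p = 0.923). By qRT-PCR on separate cultures of the lines, the authors reported MMP2 and MMP14 as significantly higher in PRL-1 cells, MMP2 by a much smaller fold. For MMP14 the array interval, with an upper end of 0.33, does not hold a rise of the reported size. For MMP2 the interval of 201069_at ran from -1.14 to 0.61, so this probe set cannot exclude a small rise. That of 1566678_at, near the limit of measurement, ran from -1.64 to -0.02. The reason for these differences was not tested. Among 9 MMP genes that are neighbours in 1 cluster on chromosome 11, 5 were tested (MMP3, MMP7, MMP8, MMP12 and MMP27). Of these, only MMP7 reached 100 on all arrays. Of the other 55 member genes, 43 were tested and 28 reached 100 on all arrays. All cluster genes but MMP8 had 1 probe set, and genes with more probe sets have more chances to reach 100. These counts per gene therefore do not set the cluster apart. MMP7 gave 152.8 and 166.8 on PRL-1 arrays and 191.9, 136 and 176.9 on vector arrays, with overlapping groups (limma adjusted p = 0.963).

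For ADAM10 and ADAM17, the best known sheddases, the groups overlapped in all 6 probe sets. ADAM10, which cleaves Notch and cadherins, gave 2382 and 2087 on PRL-1 arrays and 2322, 2204 and 1832 on vector arrays through 202603_at. Its log2 fold change was 0.08 (95% interval -0.23 to 0.39, limma adjusted p = 0.883), and the 2 other probe sets gave 0.21 and 0.06. ADAM17, which releases TNF and ligands of the EGF receptor, gave 781.2 and 853.2 on PRL-1 arrays and 803.9, 890.5 and 836.5 on vector arrays through 213532_at. The groups overlapped there (log2 fold change -0.05, 95% interval -0.34 to 0.25, limma adjusted p = 0.935) and in its 2 other probe sets, at -0.13 and 0.10. ADAM9 gave 1871 and 1823 on PRL-1 arrays and 1987, 2010 and 1886 on vector arrays through 202381_at. These groups were apart by a small margin, with a log2 fold change of -0.09 (95% interval -0.33 to 0.16, limma adjusted p = 0.836). ADAM15, found at epithelial junctions, gave -0.16 and -0.01 in its 2 probe sets (limma adjusted p = 0.785 and 0.991).

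ADAM22 and ADAM23, receptors without protease activity that bind LGI proteins at synapses, were tested in 6 and 4 probe sets. ADAM23 was below 0 in all 4, from -0.29 to -0.13, and ADAM22 ranged from -0.21 to 0.23. For ADAM23 the signals of 206046_at were 389 and 516.3 on PRL-1 arrays and 489.4, 479.9 and 582.7 on vector arrays, overlapping (limma adjusted p = 0.758). The 31 tested ADAM probe sets had 8 values above 0 and 23 below, with limma adjusted p from 0.718 to 0.993.

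**Figure D4:**
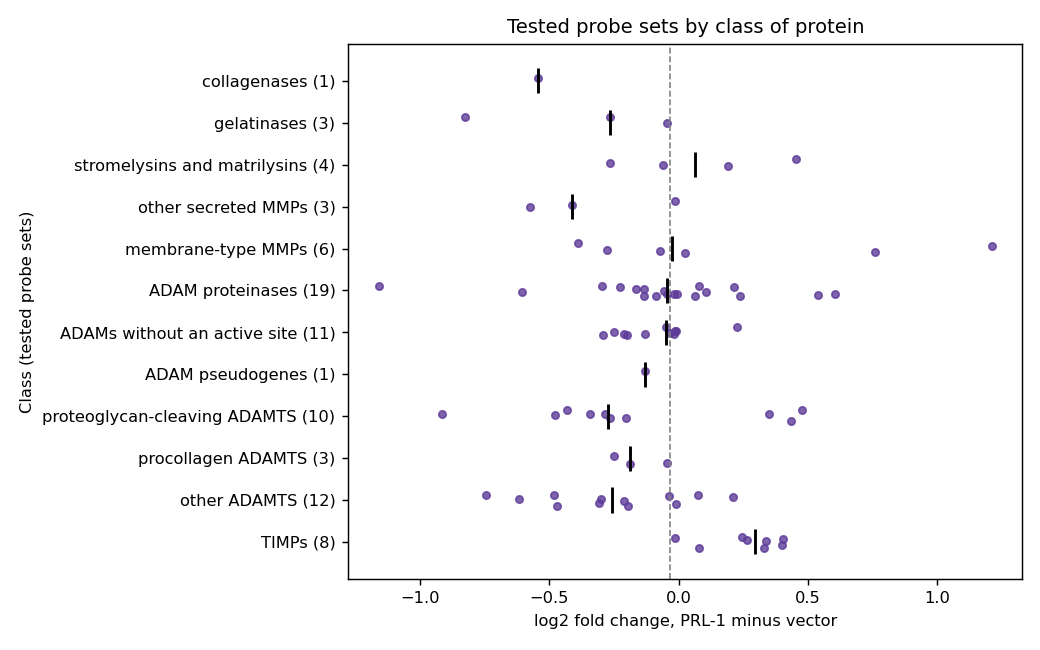
Log2 fold change of PRL-1 minus vector (horizontal axis) of each tested probe set (dots) by class of protein, with class medians as bars, the number of probe sets in brackets and the median of all tested probe sets as a dashed line. Of the TIMP probe sets 7 of 8 lie above 0, all 7 of TIMP2 or TIMP3, and of the ADAMTS probe sets 20 of 25 lie below. Those of ADAMTS10 and of ADAMTS5 (229357_at) among the 20 passed the filter through vector arrays alone.

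The numbers of members above and below 0 depended on single arrays. Without PRL-1 replicate 1 there were 39 above 0 and 39 below, with a median of 0.00, and without vector replicate 3 there were 32 above and 43 below, with a median of -0.04. Without PRL-1 replicate 2 there were 26 above and 52 below, with a median of -0.16. Relative to the vector mean, the median log2 signal of the members was -0.16 and 0.00 on PRL-1 replicates 1 and 2, and -0.06, -0.07 and 0.20 on vector replicates 1, 2 and 3. PRL-1 replicate 1 thus had the lowest median and vector replicate 3 the highest. Vector replicate 3 was the highest of the 5 arrays for 39 of 81 member probe sets (48.1%) and for 38.5% of all tested probe sets. After quantile normalization 37 members were above 0 and 44 below, and for ADAMs 15 and 16, so no direction is given for the ADAM or MMP families. The TIMP probe sets, 7 of 8 from TIMP2 or TIMP3, had array medians of 0.21 and 0.33 on PRL-1 replicates 1 and 2. On vector replicates 1, 2 and 3 these medians were -0.03, 0.04 and -0.05. Of the 8 TIMP probe sets, 7 were above 0 after quantile normalization and 8 after median centring or without vector replicate 3, with a median of 0.24 in the last. Of the 25 ADAMTS probe sets, 18 were below 0 after quantile normalization, 15 without PRL-1 replicate 1 (median -0.13) and 16 of 24 without vector replicate 3 (median -0.14).

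**Figure D5:**
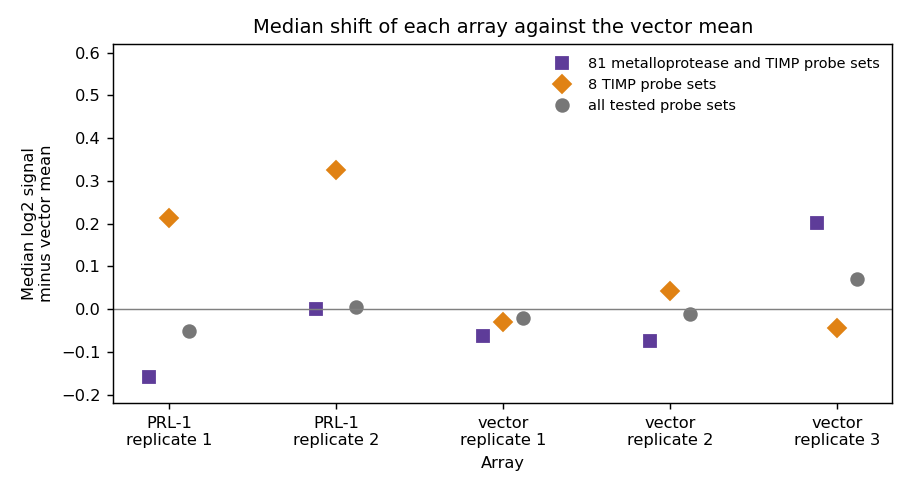
Median log2 signal of each array minus the vector mean (vertical axis) for the tested members (squares), the TIMP probe sets (diamonds) and all tested probe sets (circles). The members stand at 0.20 on vector replicate 3. The median of the TIMP probe sets, 7 of 8 from TIMP2 or TIMP3, is highest on the PRL-1 arrays.

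In 20 genes with 2 or more tested probe sets, the values had 1 sign throughout in 13, above 0 in 4 and below 0 in 9. ADAMTS1, TIMP2, TIMP3 and ADAM10 were the genes above 0. Since probe sets of a gene share transcripts and arrays, these counts describe agreement of the probe sets only.

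Genes that act with the members were described by lists in the same way. Of all tested probe sets, 4.39% were higher and 5.33% lower at an unadjusted p at or below 0.05. Their median log2 fold change was -0.04. Probe sets of 1 gene are not independent, and the lists were chosen with earlier results of these data known. The shares below are therefore descriptions and do not measure an enrichment. Of 41 tested probe sets of activators and inhibitors of matrix proteases, such as the urokinase system and RECK, none was called, 1 was higher (2.44%) and none was lower, with a median of 0.08. The higher one was CD44, a hyaluronan receptor that can hold MMP9 at the cell surface, with 451.4 and 365.5 on PRL-1 arrays and 243.5, 291.9 and 150.6 on vector arrays (log2 fold change 0.88, limma adjusted p = 0.391). Both PRL-1 arrays lay above all vector arrays. BSG, which induces MMPs in neighbouring cells, gave 0.31 and PCSK5, a proprotein convertase, gave 0.40 (limma adjusted p = 0.521 and 0.54). Of 31 probe sets of partners that traffic ADAM10 and ADAM17, none was called, 2 were higher (6.45%) and 1 was lower (3.23%), with a median of -0.07. DLG1, a scaffold that binds ADAM10, gave 676.5 and 610.8 on PRL-1 arrays and 479.6, 465.3 and 420.9 on vector arrays, a log2 fold change of 0.50 (limma adjusted p = 0.335). TSPAN15, a tetraspanin that steers ADAM10 to N-cadherin, gave 484.6 and 399.3 on PRL-1 arrays and 544.5, 598.4 and 609.1 on vector arrays, a log2 fold change of -0.41 (limma adjusted p = 0.457). The groups were apart in both, in opposite directions. FRMD8, which stabilises the iRhom and ADAM17 complex, gave 0.35 (limma adjusted p = 0.513).

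Cell surface substrates of ADAMs had 65 tested probe sets of 28 genes, none called, with a median of 0.04. At an unadjusted p at or below 0.05, 7 probe sets were higher (10.8%) and 2 lower (3.08%). CDH1, the epithelial cadherin that ADAM10 cleaves, gave 403.1 and 431.5 on PRL-1 arrays and 158.2, 188.2 and 186.4 on vector arrays (log2 fold change 1.24, limma adjusted p = 0.0871). ALCAM, an adhesion molecule shed by ADAM17, gave 2136 and 1841 on PRL-1 arrays and 1401, 1356 and 1333 on vector arrays (0.54, limma adjusted p = 0.207). In both, PRL-1 arrays lay above all vector arrays. APP, the amyloid precursor that ADAM10 cleaves, gave 8474 and 6436 on PRL-1 arrays and 1518, 3812 and 3939 on vector arrays in 214953_s_at (1.38, limma adjusted p = 0.287), with vector replicate 1 far below the other vector arrays.

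Matrix substrates had 55 tested probe sets of 25 genes. At an unadjusted p at or below 0.05, 12 probe sets were higher (21.8%) and 2 lower (3.64%). The median was 0.05, and 1 probe set was called. That was SPARC, a matrix glycoprotein, with 614.2 and 648.9 on PRL-1 arrays and 40.3, 42.9 and 12.9 on vector arrays, at least 6.31-fold higher (limma adjusted p = 0.0292). It passed the filter through the PRL-1 arrays alone. COL4A1, a chain of basement membrane collagen, gave 0.79 (limma adjusted p = 0.295). VCAN, a substrate of ADAMTS1, gave 2027 and 1986 on PRL-1 arrays and 1529, 1540 and 1543 on vector arrays in 215646_s_at, a log2 fold change of 0.38 (limma adjusted p = 0.305).

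The ADAMTS-like and related proteins, which resemble ADAMTS but lack the protease domain, had 6 tested probe sets, all below 0, with a median log2 fold change of -0.48 and none called. At an unadjusted p at or below 0.05, 3 of the 6 were lower, and all 3 belonged to THSD4, which binds fibrillin microfibrils. It gave 237.5 and 244.7 on PRL-1 arrays and 399.4, 343.2 and 441 on vector arrays in 222835_at, a log2 fold change of -0.70 (limma adjusted p = 0.288). Its 226506_at gave -0.62 (limma adjusted p = 0.498). Its 219153_s_at was at least 1.5-fold lower, with both PRL-1 arrays under 100 and the filter passed through vector arrays alone (limma adjusted p = 0.305). Transcription factors known to act on MMP genes had 40 tested probe sets of 15 genes, none called, with a median of 0.08. At an unadjusted p at or below 0.05, 11 probe sets were higher (27.5%) and 2 lower (5%). TWIST1, a regulator of mesenchymal genes, gave 167.6 and 171.9 on PRL-1 arrays and 394.6, 402.9 and 336.8 on vector arrays, a log2 fold change of -1.15 (limma adjusted p = 0.0929). ETV4, an ETS factor, gave 359.6 and 356.5 on PRL-1 arrays and 110.9, 129.8 and 52.9 on vector arrays in 1554576_a_at, a log2 fold change of 1.97 (limma adjusted p = 0.193). The related ETV5 gave 1.22 (limma adjusted p = 0.201), and groups were apart in all 3 genes. Other metzincins and metalloproteases had 22 tested probe sets with 12 above 0 and 10 below, a median of 0.02 and no call. ECE2, an endothelin-converting enzyme and the only one at an unadjusted p at or below 0.05, gave 1032 and 887.6 on PRL-1 arrays and 805.9, 734.9 and 486.2 on vector arrays (log2 fold change 0.54, limma adjusted p = 0.474). The procollagen protease BMP1 gave -0.57 and PAPPA2, which cleaves IGF-binding proteins, gave -0.51 (limma adjusted p = 0.551 and 0.566).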

How the data were processed

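Total RNA of HEK293 cells was hybridized to 5 arrays, 2 labelled PRL-1 and 3 labelled vector. The deposited values are MAS5 signals, that is 1 linear intensity for each probe set, which the authors computed in the affy package with its defaults. On each array their mean, trimmed by 2% at each end, was 500. The small number of arrays sets the precision. Genes were named through the platform annotation, updated through gene identifiers to GRCh38.p14. Control probe sets (62) were left out, and a probe set was tested with a signal of at least 100 on at least 2 arrays (33818). Presence calls were not used here. Log2 signals were modelled in R 4.3.3 with limma 3.58.1 (lmFit, eBayes with trend, group as the only term), two-sided, with Benjamini-Hochberg adjustment over all tested probe sets and a call at 0.05. The script was tested on simulated data. P-values measure the spread between cultures of a line.

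The members, lists and rule for named genes were chosen with earlier results of these data known. The rule takes called members, the 12 member probe sets with the smallest p, the 8 genes with the highest signal, TIMP1 to TIMP4, ADAM10, ADAM17, MMP2, MMP9 and MMP14, and for each list called genes and the 3 with the smallest p; further members were named after their values were seen. Alternatives covered the filter, a log offset of 32, quantile normalization, median centring, eBayes without trend, array weights, a replicate block, the methods' t-test, suffixes _x_at and _s_at left out, and each array left out. A planned motif search in protein sequences was not run.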

Additional observations from a re-analysis of the deposited data

How the results depend on the processing

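No member was called under 12 of 15 alternatives. ADAMTS1 222162_s_at was the 1 member called with array weights (limma adjusted p = 0.0476), with the replicate block (0.0415) and without vector replicate 3 (0.0473), and its log2 fold change lay between 0.45 and 0.52 wherever it was tested. The block in effect removes vector replicate 3. The labels do not say that same-numbered arrays were paired. Deviations of same-numbered arrays correlated at 0.06 and -0.06. With 2 PRL-1 arrays the deviations of the 2 mirror each other, so these correlations cannot decide whether arrays were paired. Over all probe sets the number called was 65, and it was 9 without the trend, 275 with array weights, 448 with the replicate block, 0 with the methods' t-test after adjustment (8.59% at an unadjusted p at or below 0.05) and 41 without _x_at and _s_at probe sets. With each array left out it ran from 11 to 253, and that of members from 0 to 1. Where 1 PRL-1 array remained, its spread was taken to equal that of vector arrays. The cause of these changes was not tested. The median log2 fold change of members lay between -0.21 and 0.00. Of 428 values of named members under alternatives, 31 had the opposite sign, none with a call. Signals near 100 limit what dim probe sets can show.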
